A study of Mus musculus with 12 samples.

Results

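The enzymes described here are those of the pentose phosphate pathway, together with cytosolic isocitrate dehydrogenase, measured as transcripts in mouse liver. The genes were taken by symbol from the platform's annotation: 8 were listed (G6pdx, Pgls, Pgd, Rpia, Rpe, Tkt, Taldo1 and Idh1), and 7 of them were found, through 15 of the 45101 probe sets on the array. They are 7 of 18194 genes tested. No probe set is tied to G6pdx, glucose-6-phosphate dehydrogenase, in the annotation used here, so the entry enzyme of the pathway was not analysed here. The separate gene G6pd2 was not used in its place.

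The pentose phosphate pathway branches from glycolysis at glucose 6-phosphate. Its oxidative arm (glucose-6-phosphate dehydrogenase, the lactonase encoded by Pgls and the phosphogluconate dehydrogenase encoded by Pgd) releases carbon dioxide and makes NADPH and ribulose 5-phosphate. Its non-oxidative arm (Rpia, Rpe, Tkt and Taldo1) interconverts pentose phosphates with the glycolytic intermediates fructose 6-phosphate and glyceraldehyde 3-phosphate. In liver NADPH serves fatty acid and sterol synthesis and the reduction of glutathione, and Idh1 supplies it from isocitrate. Enzymes of the oxidative arm are known in rodent liver for rising with carbohydrate feeding, as lipogenic enzymes do.

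Liver RNA came from mice of a mixed SV129 and C57Bl/6 background, in 4 groups of 3 arrays: LG2KO refed (LG2KO genotype, treated with tamoxifen, fasted and then refed), control refed (fasted and then refed), LG2KO fasted (LG2KO genotype, treated with tamoxifen) and control fasted. LG2KO is read here as a liver knockout of the glucose transporter Glut2, encoded by Slc2a2, a name that the labels do not spell out, and control arrays carry no tamoxifen label, so that genotype and tamoxifen cannot be told apart. RNA of 3 animals was pooled for every array, which makes n = 3 pools per group throughout. Neither the promoter that drives the deletion nor sex, age or hours of fasting could be taken from the labels. The source field of the LG2KO fasted arrays reads fasted/refed, which conflicts with their title and diet; title and diet decided the group.

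Values are log2 expression values made by RMA, so a difference of 1 stands for a doubling. Slc2a2 averaged 3.74 in LG2KO refed and 10.96 in control refed livers, and 3.90 in LG2KO fasted and 10.64 in control fasted livers. Albumin (Alb), a hepatocyte marker, lay between 14.10 and 14.41 on all 12 arrays. A pair of arrays stood apart from their groups, control refed replicate 1 and LG2KO fasted replicate 3: arrays of a group correlated at 0.984 or higher with them and at 0.994 or higher without them. Transcripts of exocrine pancreas were high on control fasted replicate 3 (Ctrb1 at 9.18, against at most 5.51 elsewhere). Results that move with these arrays are given below with and without them. A gene passed when its adjusted p, over all 18194 genes, was below 0.05 in the fit of all 12 arrays. Where groups are said not to overlap, the share of all genes that do the same was not counted.

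In control livers 3 of the 7 enzymes were higher after refeeding: Pgd of the oxidative arm, and Rpia and Tkt of the non-oxidative arm. They rose by 0.82 ± 0.14, 0.52 ± 0.11 and 0.46 ± 0.09 on the log2 scale (standard error of the fit), which is 1.77-fold, 1.43-fold and 1.38-fold. None fell past the threshold. The median of the 7 differences was 0.37, against -0.01 over all genes, and 6.46% of all genes passed in this comparison. That middle value was the difference of Idh1, 0.37 ± 0.22, which did not pass (adjusted p = 0.490). It fell to 0.14 without control refed replicate 1, so the median leans on that array. In whole liver, fewer cells of a type and less RNA per cell cannot be told apart. Promoter activity was not measured. For reference, the 250 bases before the start of each of these 3 genes are printed here 5′ to 3′ from RefSeq (GRCm38.p6). CCAAT boxes (CCAAT) and GC boxes (GGGCGG), on either strand, are in capitals.
Pgd (chr4:149166706-149166955, minus strand): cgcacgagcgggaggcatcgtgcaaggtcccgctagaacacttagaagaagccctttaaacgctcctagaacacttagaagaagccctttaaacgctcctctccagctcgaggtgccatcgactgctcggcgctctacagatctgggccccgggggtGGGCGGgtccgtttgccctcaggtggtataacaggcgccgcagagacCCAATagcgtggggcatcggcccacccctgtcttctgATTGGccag
Rpia (chr6:70792176-70792425, minus strand): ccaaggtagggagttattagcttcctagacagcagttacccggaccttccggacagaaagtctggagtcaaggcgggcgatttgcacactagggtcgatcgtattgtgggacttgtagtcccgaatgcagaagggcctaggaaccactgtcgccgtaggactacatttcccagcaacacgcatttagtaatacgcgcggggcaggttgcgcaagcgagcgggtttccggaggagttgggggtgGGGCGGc
Tkt (chr14:30548881-30549130, plus strand): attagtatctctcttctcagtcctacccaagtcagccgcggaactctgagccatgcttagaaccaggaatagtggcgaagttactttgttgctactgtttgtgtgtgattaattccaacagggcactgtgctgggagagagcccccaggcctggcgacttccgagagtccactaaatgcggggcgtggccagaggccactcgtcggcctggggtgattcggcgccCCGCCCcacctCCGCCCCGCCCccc

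Each of the 3 windows held a GC box, and only that of Pgd held CCAAT boxes. Pgd had 2 CCAAT boxes, starting 46 and 9 bases before the start, and 1 GC box, at 93 bases. Rpia had 1 GC box, 7 bases before the start, and Tkt had 3, at 25, 14 and 9 bases, of which the last pair share a base. A GC box was found before all 7 measured members, against 32.7% of the 27025 genes searched, and a CCAAT box before 3 (Pgd, Taldo1 and Idh1), against 34.5%. The genes searched were all those with a RefSeq window, not matched to the members in base content or expression. The 7 member windows were 54.4% to 64.4% G and C, so no enrichment is read from these shares. The E-box core of the carbohydrate response element (CACGTG), a sterol regulatory element (TCACNCCAC) and the core of the antioxidant response element (TGACNNNGC), searched on both strands, were not in any of the 7 windows. Of all genes 5.98%, 1.04% and 10.2% held them. The window of Rpe does not begin at the start that RefSeq's gene table gives for that gene. A match is a string of letters, and binding was not measured.

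Pgd encodes 6-phosphogluconate dehydrogenase, the second NADPH-making step of the oxidative arm. Its levels were 9.48, 9.82 and 9.85 on the refed control arrays, against 9.02, 8.75 and 8.91 on the fasted control arrays. Every refed array lay above every fasted array (adjusted p = 0.00290), with a group mean of 9.71 ± 0.21 (SD) in refed and 8.89 ± 0.13 in fasted controls. Without the pair of arrays that stand apart the difference was 0.94 ± 0.12 (adjusted p = 0.000391). Pgd has 4 probe sets, 3 of them of a design that can also bind related transcripts, the one read out above included. In refed against fasted controls the differences of the other 3 sets were 0.82, 0.75 and 0.85, and all 4 passed when every probe set was tested on its own.

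In the fasted state Pgd lay at 9.31, 9.52 and 9.71 in LG2KO livers, against 9.02, 8.75 and 8.91 in control livers. The groups did not overlap. The difference of 0.62 ± 0.14 (1.54-fold) did not pass, with an adjusted p of 0.110 and a 95% interval of 0.32 to 0.92. Leaving out control refed replicate 1, which is in neither group but enters the shared spread, gave an adjusted p of 0.0466, and array weights gave 0.0113 with a difference of 0.61.

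After refeeding Pgd averaged 9.92 ± 0.16 in LG2KO and 9.71 ± 0.21 in control livers, with overlapping arrays (difference 0.21 ± 0.14, adjusted p = 0.709). Within LG2KO livers the levels were 9.84, 9.82 and 10.11 after refeeding, against 9.31, 9.52 and 9.71 in the fasted state. That difference, 0.41 ± 0.14, did not pass with all arrays (adjusted p = 0.105), although the arrays did not overlap. It passed without the arrays that stand apart, at 0.51 ± 0.12 (adjusted p = 0.0111), without control refed replicate 1 alone (adjusted p = 0.0495) and with array weights (adjusted p = 0.0109).

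Pgls encodes 6-phosphogluconolactonase, the hydrolase between the dehydrogenases of the oxidative arm. It was read by 1 probe set and, unlike Pgd, was not lowest as a group in fasted controls. Levels were 11.16, 11.35 and 11.36 on LG2KO refed arrays, against 10.64, 10.98 and 11.04 on control refed arrays. The arrays did not overlap, and the difference of 0.40 ± 0.11 (1.32-fold) did not pass (adjusted p = 0.180). Control refed replicate 1 was the lowest of all 12 arrays for this gene. Without the arrays that stand apart the difference was 0.28 ± 0.08 (adjusted p = 0.207).

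Fasted livers had Pgls at 10.98, 10.90 and 11.13 in LG2KO and at 10.89, 10.97 and 11.01 in controls, with overlapping arrays (difference 0.05 ± 0.11). In LG2KO livers every refed array lay above every fasted one for Pgls, at 0.29 ± 0.11 (adjusted p = 0.153). In controls the refeeding difference was -0.07 ± 0.11, and the arrays overlapped. The value in LG2KO livers became 0.35 ± 0.08 without the arrays that stand apart and then passed (adjusted p = 0.00972). It also passed with array weights (adjusted p = 0.00586) and without control refed replicate 1 alone (adjusted p = 0.0374).

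**Figure D1:**
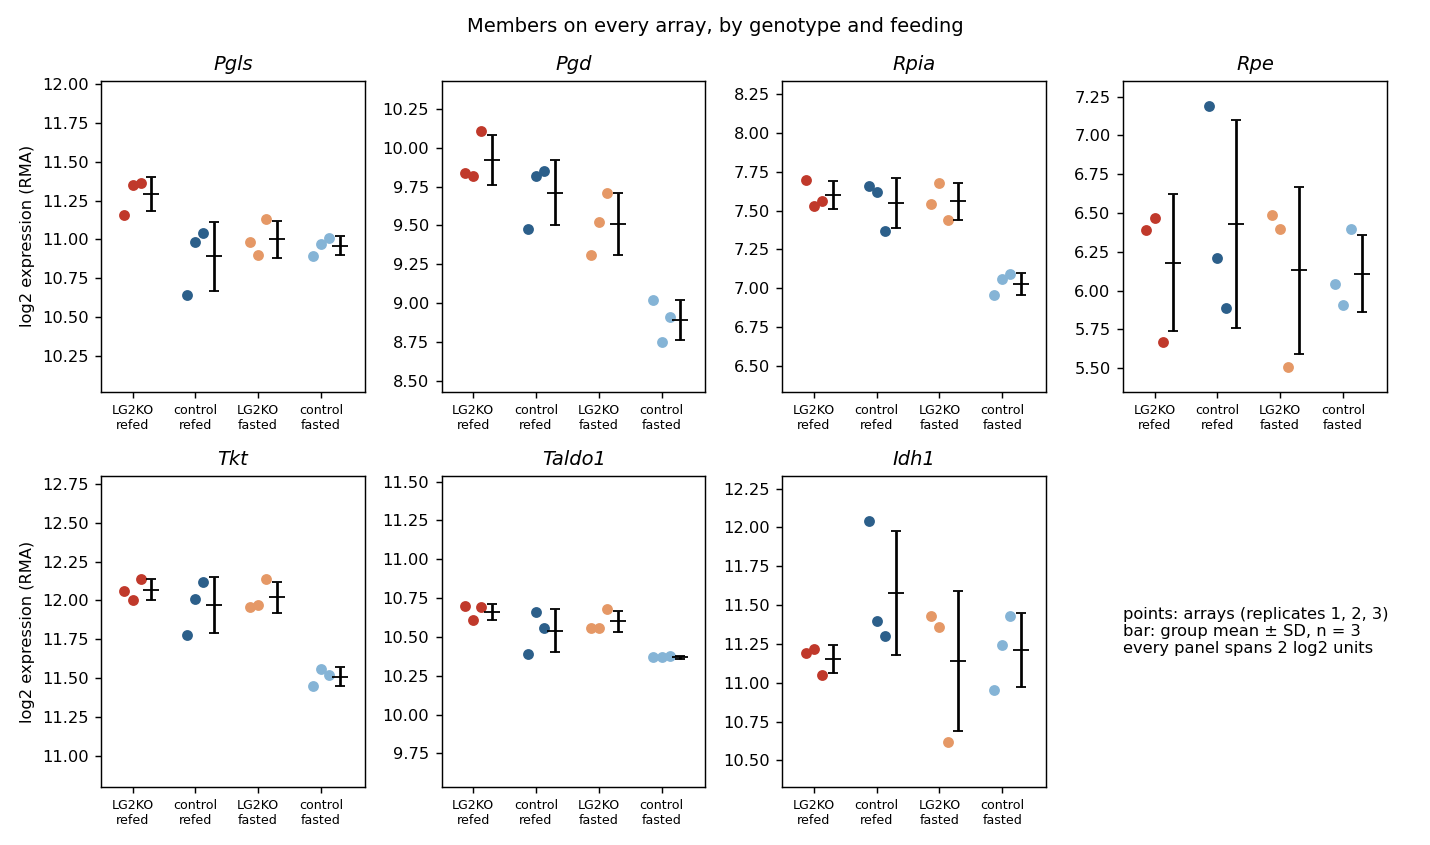
Log2 expression of the 7 measured enzymes on each of the 12 arrays, by group; points are arrays, and bars give the group mean ± SD (n = 3 pools). The control fasted arrays are the lowest group for Pgd, Rpia, Tkt and Taldo1, whereas Rpe and Idh1 spread widely within groups.

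Among the enzymes of the non-oxidative arm Tkt, transketolase, moves 2-carbon units between sugar phosphates. It had the smallest adjusted p of the 7 between genotypes in the fasted state. Its levels were 11.96, 11.97 and 12.14 in LG2KO fasted livers, against 11.45, 11.56 and 11.52 in control fasted livers. Every LG2KO array lay above every control array. Tkt rose by 0.52 ± 0.09 (1.43-fold, adjusted p = 0.0240), and it was the 1 member of 7 that passed in the fasted genotype comparison, where 0.396% of all genes did. The median of the 7 was 0.23, against 0.00 over all genes.

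Leaving out any 1 of the 6 arrays compared gave differences from 0.46 to 0.55, none of which passed (adjusted p from 0.0692 to 0.117). In turn these were 0.0692, 0.0867 and 0.117 without LG2KO fasted replicates 1, 2 and 3, and 0.105, 0.0775 and 0.0926 without control fasted replicates 1, 2 and 3. Without both arrays that stand apart it was 0.46 ± 0.07 and passed (adjusted p = 0.0103). It did not pass when the fit had no intensity trend (adjusted p = 0.0916).

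Tkt has 3 probe sets, and the brightest, read out above, is of the design that can also bind related transcripts. In LG2KO against control fasted livers the set with a middle level gave 0.49 ± 0.10 (adjusted p = 0.108), with arrays that did not overlap, and the dimmest set gave 0.23 ± 0.22. Averaging all 3 gave 0.41 with an adjusted p of 0.528. In the refeeding comparison of controls the middle set gave 0.61 ± 0.10 and passed (adjusted p = 0.00359), while the dimmest gave 0.10 ± 0.22.

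Refeeding of controls took Tkt to 11.78, 12.01 and 12.12, against 11.45, 11.56 and 11.52 in the fasted state. The arrays did not overlap, and the difference of 0.46 ± 0.09 passed (adjusted p = 0.00627), also without the arrays that stand apart, at 0.56 ± 0.07. In LG2KO livers Tkt averaged 12.07 ± 0.07 (SD) after refeeding, with 12.14 as its highest array, against 11.96, 11.97 and 12.14 in the fasted state. These overlapped, with a difference of 0.04 ± 0.09 and a 95% interval of -0.15 to 0.23. Refed livers of both genotypes also overlapped (LG2KO minus control 0.09 ± 0.09, adjusted p = 0.806).

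Rpia encodes ribose-5-phosphate isomerase, which makes the ribose 5-phosphate that nucleotide synthesis uses. Like Tkt it was lowest in fasted controls. Levels were 7.54, 7.68 and 7.44 in LG2KO fasted livers, against 6.96, 7.06 and 7.09 in control fasted livers. The groups did not overlap, but the difference of 0.52 ± 0.11 (1.44-fold) did not pass (adjusted p = 0.110). It was 0.58 ± 0.11 without the arrays that stand apart (adjusted p = 0.0512) and 0.59 with array weights, where it passed (adjusted p = 0.00824).

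In controls Rpia lay at 7.66, 7.62 and 7.37 after refeeding, again above every fasted control array. The rise of 0.52 ± 0.11 had an adjusted p of 0.0173. It did not pass without control refed replicate 2, control fasted replicate 1 or control fasted replicate 2 (adjusted p = 0.0727, 0.0785 and 0.0548), nor when only the groups compared were fitted (adjusted p = 0.0719). In LG2KO livers Rpia was at 7.70, 7.53 and 7.56 after refeeding and at 7.54, 7.68 and 7.44 in the fasted state. The refeeding difference there was 0.04 ± 0.11, with a 95% interval of -0.21 to 0.29. Between genotypes the refed arrays overlapped as well, at 0.05 ± 0.11 (adjusted p = 0.931).

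Taldo1, transaldolase, carries 3-carbon units in the same arm. Its control fasted arrays were closely spaced, at 10.37, 10.37 and 10.38, below the 10.56, 10.56 and 10.68 of the LG2KO fasted arrays. That difference was 0.23 ± 0.08 (1.17-fold, adjusted p = 0.629) and did not pass. Refed controls lay at 10.39, 10.66 and 10.56, above the fasted controls on all 3 arrays, with a difference of 0.17 ± 0.08 (adjusted p = 0.337). Without the arrays that stand apart this became 0.24 ± 0.07 and passed (adjusted p = 0.0375), and it also passed with array weights (adjusted p = 0.0250). In LG2KO livers Taldo1 lay at 10.70, 10.61 and 10.69 after refeeding, overlapping the LG2KO fasted arrays (difference 0.06 ± 0.08).

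**Figure D2:**
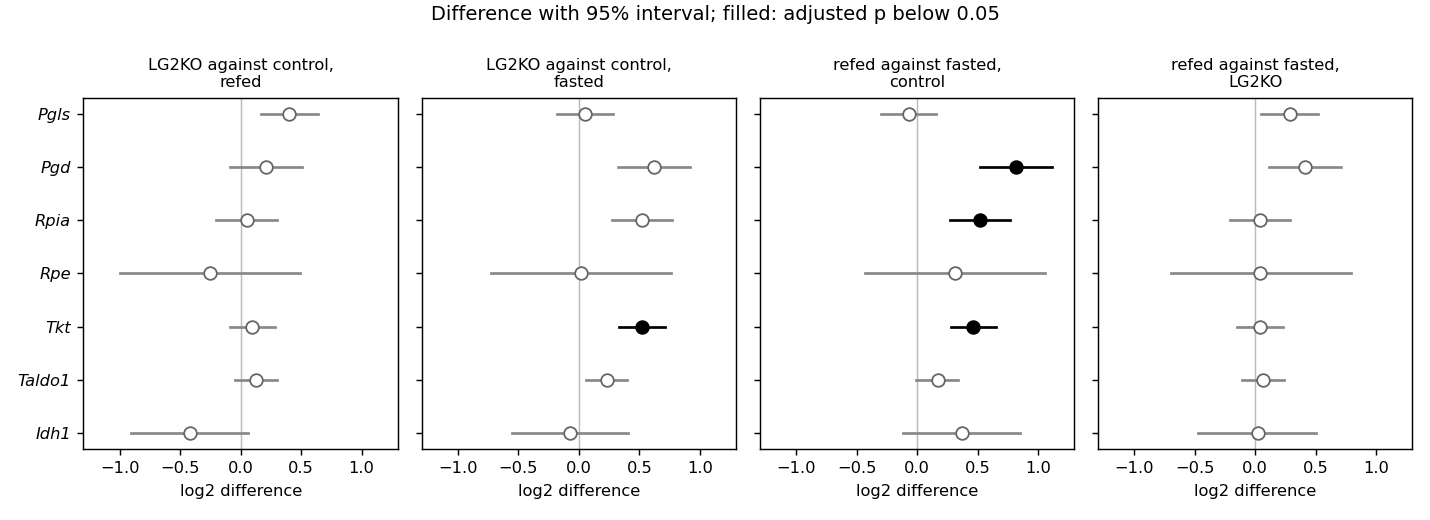
Log2 differences of the 7 enzymes in 4 comparisons, with 95% intervals; filled points had an adjusted p below 0.05. Tkt passed between genotypes in the fasted state (0.52), and Pgd, Rpia and Tkt passed for refeeding in controls (0.82, 0.52 and 0.46).

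Rpe encodes ribulose-5-phosphate epimerase, which converts ribulose 5-phosphate to xylulose 5-phosphate. It was 6.39, 6.47 and 5.67 in LG2KO refed, 7.19, 6.21 and 5.89 in control refed, 6.49, 6.40 and 5.51 in LG2KO fasted and 6.04, 5.91 and 6.40 in control fasted livers. All groups overlapped. The highest and lowest of the 12 values belong to the pair of arrays that stand apart, which lay 0.76 above and 0.62 below their group means. The difference between refed LG2KO and control livers was -0.25 ± 0.34 with all arrays and 0.13 ± 0.23 without that pair, and neither passed.

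A second probe set of Rpe spread in the same way, from 4.85 on LG2KO fasted replicate 3 to 7.20 on control refed replicate 1. The remaining set lay between 2.30 and 2.59 on all arrays, at the 1.1 to 5.1 percentile of an array. For refeeding in controls the difference of Rpe was 0.31 ± 0.34, with a 95% interval from -0.43 to 1.06. It was -0.06 without control refed replicate 1, and neither value passed.

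Idh1 encodes the cytosolic NADP-dependent isocitrate dehydrogenase, which makes NADPH outside the pentose pathway. Levels in LG2KO refed livers were 11.19, 11.22 and 11.05, against 12.04, 11.40 and 11.30 in control refed livers. Each LG2KO array lay below each control array. The difference was -0.42 ± 0.22 and did not pass (adjusted p = 0.633). Without the arrays that stand apart, one of which is the control array at 12.04, it was -0.19 ± 0.12 (adjusted p = 0.659).

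In the fasted state Idh1 lay at 11.43, 11.36 and 10.62 in LG2KO livers and at 10.95, 11.24 and 11.43 in control livers. The lowest value is that of LG2KO fasted replicate 3. The fasted genotype difference was -0.07 ± 0.22 with all arrays and 0.19 ± 0.12 without the pair, and neither value passed. For refeeding in LG2KO livers the difference was 0.02 ± 0.22 with all arrays and -0.24 ± 0.12 without the pair (adjusted p = 0.182). Both probe sets of Idh1 are of a design shared by several transcripts, and their differences were -0.42 and -0.36 in refed LG2KO against control livers. They disagreed in sign between fasted genotypes (-0.07 and 0.06) and for refeeding in LG2KO livers (0.02 and -0.09).

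**Figure D3:**
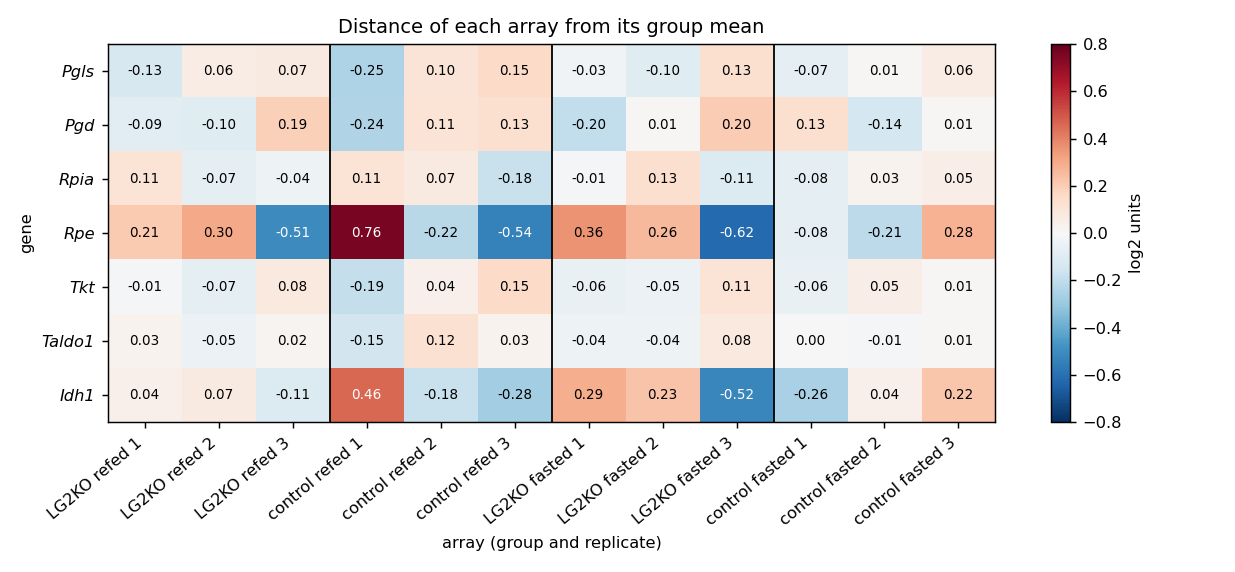
Distance of each array from the mean of its group, in log2 units, for the 7 enzymes; columns are arrays and lines separate groups. Control refed replicate 1 and LG2KO fasted replicate 3 lay at 0.76 and -0.62 for Rpe and at 0.46 and -0.52 for Idh1, and within 0.25 of their group means for the other 5.

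Compared across groups, Pgd, Rpia, Tkt and Taldo1 had the control fasted arrays below the arrays of each other group, without overlap. For Taldo1 the gap was small, with control refed replicate 1 at 10.39 and control fasted replicate 3 at 10.38. The share of all genes with such an order of groups was not counted, so it is given as a description only. The fasted genotype comparison and the refeeding comparison of controls share those 3 control fasted arrays, so their values are set side by side only. For Tkt the values were 0.52 and 0.46, for Rpia 0.52 and 0.52, for Pgd 0.62 and 0.82, and for Taldo1 0.23 and 0.17. Leaving out the control fasted array with pancreas transcripts gave 0.52 for Tkt between genotypes (adjusted p = 0.0926). On that array the 4 genes were within 0.05 of their group means. The mean level of the 3 measured adipose markers (Adipoq, Lep and Retn) moved with the fasted genotype comparison, at 4.38 to 4.52 in LG2KO fasted and 4.13 to 4.25 in control fasted livers, without overlap. Adipoq lay at 4.61, 4.33 and 3.60 in LG2KO fasted livers, against 3.33, 3.25 and 3.77 in control fasted livers. Those arrays overlapped. So did those of Lep (3.35, 3.73 and 3.64 against 3.58, 3.47 and 3.48) and Retn (5.51, 5.48 and 5.9 against 5.69, 5.67 and 5.5). The part of these markers in the values of the enzymes was not tested.

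After refeeding, 0 of the 7 enzymes passed between genotypes, where 0.379% of all genes did. None had an adjusted p below 0.180, and 1 of 7 had an unadjusted p below 0.05 (Pgls), as did 9.13% of all genes. The median of the 7 was 0.09, against 0.02 over all genes. In LG2KO livers 0 of 7 passed for refeeding, where 7.05% of all genes did. The median there was 0.04, against 0.01, and the 7 values lay between 0.02 and 0.41. At unadjusted p below 0.05 there were 2 of 7, Pgls and Pgd, and 18.2% of all genes. Both passed without the arrays that stand apart.

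The difference between these responses was tested by the interaction, the refeeding difference in LG2KO minus that in control livers. None of the 7 passed, and 0.00550% of all genes did. Tkt had the smallest p of the 7, at -0.42 ± 0.12 with an unadjusted p of 0.00484 and an adjusted p of 0.699. Rpia was at -0.47 ± 0.16 (unadjusted p = 0.0125), Pgd at -0.41 ± 0.19 (0.0544) and Taldo1 at -0.10 ± 0.11, while Pgls was at 0.35 ± 0.15 (unadjusted p = 0.0365). Of all genes 4.73% had an unadjusted p below 0.05. For none of the enzymes, then, is the refeeding response shown to differ between genotypes. Averaged over feeding states, LG2KO minus control was 0.31 ± 0.06 for Tkt, which passed (adjusted p = 0.0379), where 1.02% of all genes did. The call held without control refed replicate 1 and without control refed replicate 3 (adjusted p = 0.0299 and 0.0262), and was lost without any other single array (adjusted p from 0.0603 to 0.103). Pgd was at 0.41 ± 0.10 and missed (adjusted p = 0.0775).

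Other genes of the pathway and of its ribose branch were read from a list of 13, all of them measured, among them H6pd, the dehydrogenase of the endoplasmic reticulum, Shpk, the sedoheptulose kinase, Rbks, the ribokinase, and Prps1 and Prps2, which make phosphoribosyl pyrophosphate. None passed in any of the 6 comparisons. Their median was 0.05 for refeeding in controls, with values between -0.21 and 0.41. Between fasted genotypes it was 0.03, with values between -0.14 and 0.19. Of these genes G6pd2, Tktl1, Tktl2 and Prps1l1 had group means of only 2.67 to 3.5, below the array medians of 4.78 to 4.87. At such levels a change may not be seen, and both list medians include them. H6pd was at -0.20 ± 0.11 for refeeding in controls and at -0.13 ± 0.11 between fasted genotypes.

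Of 12 other makers of NADPH, Me1, the cytosolic malic enzyme, was likewise lowest in fasted controls. It lay at 11.25, 11.04 and 10.99 in LG2KO fasted livers, against 9.99, 9.79 and 9.82 in control fasted livers. It rose by 1.22 ± 0.12 between those groups (adjusted p = 0.000652) and by 0.62 ± 0.12 with refeeding in controls (adjusted p = 0.00822). With refeeding in LG2KO livers it was at -0.29 ± 0.12 (adjusted p = 0.220). Its interaction, -0.91 ± 0.17, did not pass (adjusted p = 0.261). LG2KO fasted minus control fasted was 1.27 ± 0.11 for Me1 when the arrays that stand apart were left out.

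Aldh1l1, a folate enzyme that makes NADPH from formyl-tetrahydrofolate, fell by 0.43 ± 0.05 with refeeding in controls (adjusted p = 0.000333) and rose by 0.31 ± 0.05 in refed LG2KO against refed control livers (adjusted p = 0.0335). The call between genotypes was lost without any 1 of 9 arrays (adjusted p up to 0.115) and without the pair that stands apart (adjusted p = 0.0662). Averaged over feeding Me1, at 0.77 ± 0.09, and Mthfd2l, a mitochondrial folate enzyme, at 0.39 ± 0.08, passed, the second not once any 1 array was left out. Mitochondrial Idh2, the partner of Idh1, was at -0.18 ± 0.09 for refeeding in controls and did not pass.

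Of 12 genes that use NADPH for lipid synthesis 9 were measured, and 5 of them rose with refeeding in each genotype. Of all genes 7.05% passed for refeeding in LG2KO and 6.46% in control livers. Sqle, squalene epoxidase, rose by 3.43 ± 0.38 in LG2KO and by 3.53 ± 0.38 in control livers. Cyp51, a sterol demethylase, rose by 1.80 ± 0.31 in LG2KO and 2.76 ± 0.31 in control livers. Fasn, fatty acid synthase, rose by 1.65 ± 0.16 in LG2KO and 2.64 ± 0.16 in control livers. For Fdft1, squalene synthase, the rise was 0.80 ± 0.21 in LG2KO and 1.51 ± 0.21 in control livers. Dhcr7, a sterol reductase named after its values were seen, rose by 1.17 ± 0.32 in LG2KO and 1.84 ± 0.32 in control livers. The median of the 9 was 0.80 in LG2KO and 1.51 in control livers. None of the 9 passed the interaction. In LG2KO livers the calls of Dhcr7 and Fdft1 were lost without any 1 of 10 and of 6 arrays (adjusted p up to 0.191 and 0.170).

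**Figure D4:**
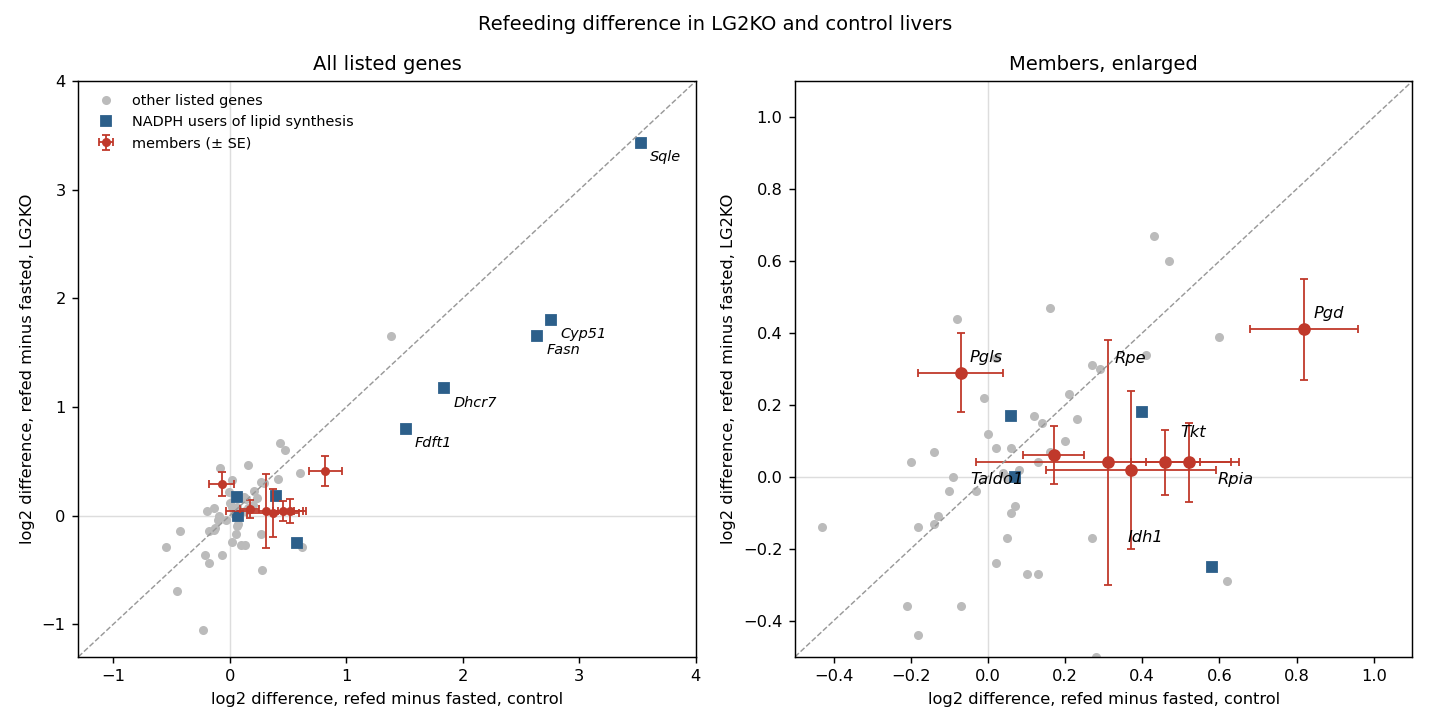
Refeeding difference in LG2KO livers against that in control livers, in log2 units, for the 7 enzymes (red, ± SE) and the other listed genes; the right panel enlarges the region of the enzymes and the dashed line marks equal differences. Tkt and Rpia lie at 0.04 in LG2KO and at 0.46 and 0.52 in control livers. Sqle lies at 3.43 in LG2KO and 3.53 in control livers. Fasn and Cyp51 lie at 1.65 and 1.80 in LG2KO and at 2.64 and 2.76 in control livers. Fdft1 and Dhcr7 lie at 0.80 and 1.17 in LG2KO and at 1.51 and 1.84 in control livers. None of the genes shown passed the interaction.

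Between genotypes in the fasted state 1 of those 9 passed, Fasn, at 1.27 ± 0.16, where 0.396% of all genes did. The list median was -0.36. In refed livers, where 0.379% of all genes passed, Cyp51, Hsd17b7 and Fdft1 fell by 1.78 ± 0.31, 1.19 ± 0.22 and 1.11 ± 0.21 in LG2KO. The list median was -0.94. Those 3 calls were lost without any 1 of 9 to 11 arrays (adjusted p up to 0.194) and held without the arrays that stand apart. The pentose phosphate enzymes had a median of 0.09 there. None of 9 NADPH users of redox defence, such as glutathione reductase, Gsr, thioredoxin reductase, Txnrd1, and Nqo1, passed in any of the 6 comparisons. Their medians were 0.04 for refeeding in controls and 0.05 between fasted genotypes.

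Of 10 glycolytic and gluconeogenic enzymes that share intermediates with the pathway 7 were measured. Glucose-6-phosphatase, G6pc, which competes for glucose 6-phosphate, rose by 1.19 ± 0.15 in LG2KO fasted against control fasted livers (adjusted p = 0.00342) and fell by 1.05 ± 0.15 with refeeding in LG2KO livers (adjusted p = 0.00117). Its refeeding difference in controls was -0.23 ± 0.15. Slc37a4, the glucose 6-phosphate transporter of the endoplasmic reticulum, fell by 0.69 ± 0.10 with refeeding in LG2KO livers and by 0.45 ± 0.10 in control livers. Fbp1, fructose-1,6-bisphosphatase, rose by 0.20 ± 0.04 in fasted and 0.22 ± 0.04 in refed LG2KO against control livers, calls that were lost without any 1 of 9 and of 11 arrays (adjusted p up to 0.168 and 0.109) and without the pair that stands apart (0.0687 and 0.0640). The call of Slc37a4 in controls was lost without control fasted replicate 1 (adjusted p = 0.0532).

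Regulators of these genes were read from a list of 7. For refeeding, 7.05% of all genes passed in LG2KO and 6.46% in control livers. In LG2KO livers 4 rose with refeeding, Srebf1 by 1.65 ± 0.10, Nr1h3 by 0.67 ± 0.10, Mlx by 0.60 ± 0.11 and Keap1, the repressor of Nfe2l2, by 0.47 ± 0.10, and Mlxipl was at 0.39 ± 0.13. With refeeding in controls 4 rose, Srebf1, a lipogenic transcription factor, by 1.38 ± 0.10, Mlxipl, the glucose-responsive factor ChREBP, by 0.60 ± 0.13, its partner Mlx by 0.47 ± 0.11 and the oxysterol receptor Nr1h3 by 0.43 ± 0.10. Srebf1 rose by 0.89 ± 0.10 in refed and by 0.62 ± 0.10 in fasted LG2KO against control livers, the fasted call being lost without any 1 of 5 arrays (adjusted p up to 0.0832). Mlxipl was at 0.28 ± 0.13 in fasted LG2KO against control livers and did not pass. With single arrays left out, refeeding calls were lost for Keap1 in LG2KO livers (without LG2KO refed replicate 2, adjusted p = 0.0569), and in controls for Mlxipl, Mlx and Nr1h3 (without any 1 of 2, 4 and 5 control arrays, adjusted p up to 0.0774, 0.124 and 0.127). The antioxidant factor Nfe2l2 was at 0.33 ± 0.16 in fasted LG2KO against control livers and did not pass either.

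Genes with patterns nearest to the 3 enzymes whose group means varied most were found by the root mean square difference over the 12 arrays. Each gene was first centred on its own mean. Only genes with a mean level above the median of all genes were searched, 9096 for each enzyme. Nearest to Pgd were Frmd8, Pnpla7 and Septin9, at 0.14, 0.15 and 0.16 log2 units, where Pgd itself varied by 0.41 about its mean. Nearest to Rpia, which varied by 0.25, were Adipor2, Rcbtb2 and Rrn3 at 0.13, 0.14 and 0.14. Nearest to Tkt, which varied by 0.24, were Ifitm3, Thnsl2 and Prpf19 at 0.10, 0.11 and 0.11.

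Of the markers of 8 other cell types and tissues, 0 passed between genotypes in either feeding state. With refeeding in controls 1 of 6 endothelial and 1 of 7 hepatocyte markers fell, where 6.46% of all genes passed. The mean of the endothelial markers was 7.61 to 7.86 in control refed and 7.96 to 8.06 in control fasted livers, without overlap. That of the hepatocyte markers was 13.73 to 13.76 in LG2KO refed and 13.77 to 13.82 in LG2KO fasted livers, and 13.70 to 13.78 in control refed and 13.79 to 13.86 in control fasted livers, also without overlap. Between LG2KO and control livers the ranges of all 9 lists overlapped in the refed state, and those of all but the adipose list in the fasted state. Adipoq was at 6.81 on LG2KO refed replicate 2, against at most 4.61 on the other arrays, and without that array 0 of the 7 enzymes passed between refed genotypes or for refeeding in LG2KO livers, as with it. The part of these cell types in the values of the enzymes was not tested.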

How the data were processed

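Liver RNA of 12 pools was hybridised to Affymetrix mouse arrays. The authors deposited log2 values for each probe set on each array, made with RMA per the submitters' processing notes; the software release is not stated there. RMA brings arrays to a common distribution, so a shift shared by most genes would not be seen. Of 45101 probe sets, 34958 had 1 gene symbol in the platform's annotation, 932 had several and 9211 are unnamed here. For a gene with several probe sets the brightest on average over the 12 arrays was used, with no filter on dim genes in the fit.

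The limma package 3.58.1 (R 4.3.3) fitted all differences, using lmFit and then eBayes with a trend on intensity, giving each group its mean and leaving 8 residual degrees of freedom. All tests are two-sided, with Benjamini-Hochberg adjustment over 18194 genes in each of 6 comparisons. P-values reflect the spread between pools, and precision is limited by the number of arrays. The members, gene lists and arrays to leave out were chosen with earlier results of these data known. Named genes are the members, Slc2a2, up to 4 passing genes per list and comparison with the smallest adjusted p, and the nearest patterns; other genes of the lists appear as examples of what a list holds. Listed genes with no probe set in the annotation were not analysed here. The fit was tested on simulated arrays: in a simulated comparison of fasted LG2KO and control livers over 18194 genes the share of true changes called was 47.8% at 1.5-fold, 77.6% at 2-fold and 98.5% at 4-fold, with 6 false calls. The simulated noise was independent between genes and arrays and held no arrays that stand apart. The shares found may therefore not hold for the real arrays. Plots were made with matplotlib 3.10.9 (Python 3.11.15).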

Additional observations from a re-analysis of the deposited data

How the results depend on the processing

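Across 952 recomputed differences of the 7 enzymes, 912 stayed on their side of the threshold, 27 lost and 13 gained a call, and 0 called values changed sign, while 46 that passed in neither setting did. In LG2KO against control fasted livers, where 1 enzyme passed, the count was 0 without the intensity trend, 0 with probe sets averaged per gene, 0 without the array with pancreas transcripts and 3 with array weights (Pgd, Rpia and Tkt), and leaving out single arrays gave 0 to 2. Averaged over feeding, where 1 passed, the count was 0, 0, 0 and 3 under the same settings, and 0 to 1 without single arrays. For refeeding in LG2KO livers, where 0 passed, it was 2 with array weights and 2 without the arrays that stand apart (Pgls and Pgd each time), and 0 to 2 without single arrays. For refeeding in controls, where 3 passed, it lay between 2 and 4 in all settings run, Tkt being lost with probe sets averaged per gene (adjusted p = 0.124). In refed LG2KO against control livers and for the interaction it was 0 in all settings run. The cause of these shifts was not tested. With the replicate number as a block the counts were 0, 1, 3, 0, 0 and 1 for refed genotype, fasted genotype, refeeding in controls, refeeding in LG2KO, interaction and average, as without it. Deviations of same-numbered arrays correlated at -0.42 to 0.71 over 18 pairs, and 6 of 12 arrays correlated best with an array of their own number, so the numbers were not taken as pairs. Fitting only the groups compared has no counterpart for the interaction and the average. Over all genes, the 69 calls between refed genotypes were 180 with array weights, 41 without the trend, 43 with robust estimation, 23 without the array with pancreas transcripts, 15 when only those groups were fitted and 8 to 47 without single arrays. The 72 between fasted genotypes were 203 with weights, 36 without the pancreas array, 44 in the fit of those groups only and 30 to 97 without single arrays. The 1176 for refeeding in controls were 2454 with weights, 2202 without the arrays that stand apart, 695 in the fit of those groups only and 706 to 1467 without single arrays. The 1283 for refeeding in LG2KO were 3578 with weights, 3187 without the arrays that stand apart and 697 to 1803 without single arrays. The 1 interaction call was 20 with weights, 6 with the block, 3 with every probe set tested and 2 with robust estimation, and 1 to 2 without single arrays. The 185 averaged over feeding were 443 with weights, 122 without the trend, 107 without the pancreas array and 88 to 207 without single arrays. Of 45 calls of genes on the other lists, 26 held without any 1 array and 41 without the arrays that stand apart.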
